A study of Rattus norvegicus with 10 samples.

Results

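The transcripts described here are those of haemoglobin and of red blood cell haem synthesis in the rat hippocampus: Hba1 and Hba2 (alpha-globin), Hbb (beta-globin) and Alas2. They were taken by name, as a measure of blood left in the tissue, and make up 4 of the 17168 genes in the deposited tables; all 4 were found. RNA was sequenced from the left hippocampus of 10 male rats of the TgF344-AD line, all 11 months old, with 1 library per rat. This line models Alzheimer's disease with mutant human transgenes for amyloid precursor protein and presenilin under the mouse prion promoter, and both groups carry them. The 5 untreated rats ate plain rodent chow. The other 5 ate chow holding 750 mg per kg of RG2833 (a drug against the histone deacetylases HDAC1 and HDAC3) for 6 months from 5 months of age. The design text names another drug, ibudilast, in its sentence on timing, while the title and the treatment labels give RG2833. Before dissection the rats were anaesthetised with ketamine and xylazine and perfused through the heart with cold phosphate-buffered saline, a step that washes blood out of the vessels.

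Haemoglobin carries oxygen in red blood cells as a tetramer of alpha and beta chains, each holding a haem group. Mature red cells of mammals have no nucleus and make no new RNA, but young circulating red cells still hold globin messenger RNA, so blood in a tissue sample adds globin transcripts to it. ALAS2 is the erythroid form of the enzyme that starts haem synthesis, while ALAS1 does this step in other tissues. Low levels of globin transcripts have also been described in neurons and glia of the rodent brain. In bulk tissue, fewer cells of a type and less RNA per cell cannot be told apart.

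The adult globin genes lie in clusters, and their near-identical copies matter for how reads were counted. In RefSeq's GRCr8 assembly the name Hbb is a gene on chromosome 1 (167662310 to 167663721). The name Hba1 is a synonym of both Hba-a1 (chromosome 10, 15841724 to 15842580) and Hba-a2 (chromosome 10, 15828291 to 15829138), and Hba2 is a synonym of Hba-a2. Which of the copies the deposited Hba1 stands for is therefore not settled by name. Alas2 lies on chromosome X (22890650 to 22914046). The windows printed below show the DNA before these genes. Reads come from the transcripts, whose sequences were not compared, so the windows do not show why reads were shared. Hba-a3 is a related alpha gene without reads in these libraries, and Hbb-b1 is another beta gene. The 180 bases before the RefSeq start of transcription are printed 5′ to 3′ for both alpha genes, Hba-a3, Hbb and Hbb-b1. All lie on the minus strand of GRCr8, at chr10:15842581-15842760, chr10:15829139-15829318, chr10:15816944-15817123, chr1:167663722-167663901 and chr1:167643521-167643700 in this order. Capitals mark matches on either strand to the letters GATAA (bound by GATA factors), to CACCC (bound by the KLF family), to CCAAT (bound by CCAAT-binding factors) and to the TATA box forms TATAAA and CATAAA.
Hba-a1: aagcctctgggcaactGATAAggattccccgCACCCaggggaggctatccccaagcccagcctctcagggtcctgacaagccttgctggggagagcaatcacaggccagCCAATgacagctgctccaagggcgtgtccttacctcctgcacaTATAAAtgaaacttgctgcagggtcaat
Hba-a2: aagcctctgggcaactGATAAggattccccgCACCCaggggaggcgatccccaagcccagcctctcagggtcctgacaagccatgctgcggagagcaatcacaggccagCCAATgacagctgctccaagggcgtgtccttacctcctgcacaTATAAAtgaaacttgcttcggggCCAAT
Hba-a3: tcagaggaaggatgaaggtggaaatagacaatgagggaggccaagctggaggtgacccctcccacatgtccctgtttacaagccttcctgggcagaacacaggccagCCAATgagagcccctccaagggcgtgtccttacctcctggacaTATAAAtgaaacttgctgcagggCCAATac
Hbb: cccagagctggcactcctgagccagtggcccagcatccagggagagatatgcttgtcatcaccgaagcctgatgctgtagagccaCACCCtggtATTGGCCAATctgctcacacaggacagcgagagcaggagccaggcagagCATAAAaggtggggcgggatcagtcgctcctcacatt
Hbb-b1: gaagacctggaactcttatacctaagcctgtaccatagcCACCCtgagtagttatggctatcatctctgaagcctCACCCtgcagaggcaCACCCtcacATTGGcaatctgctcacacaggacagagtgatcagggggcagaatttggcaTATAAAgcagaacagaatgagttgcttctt

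The windows of Hba-a1 and Hba-a2 were identical at 174 of 180 aligned bases (96.7%), and each held GATAA at -164 to -160, CACCC at -149 to -145, CCAAT at -71 to -67 and TATAAA at -28 to -23, counted back from the start of transcription. Hba-a2 held a further CCAAT at -5 to -1. The window of Hba-a3 matched that of Hba-a1 at 76.1% of bases and held CCAAT and TATAAA but neither GATAA nor CACCC. The window of Hbb matched that of Hbb-b1 at 71.1% and that of Hba-a1 at 63.3% of bases. It held CACCC at -95 to -91, CCAAT at -81 to -77 with a reverse copy next to it at -86 to -82, and CATAAA at -37 to -32. Matches to the different motifs did not overlap in these windows. Such short motifs are common: of 33469 rat promoter windows of the same length, 17.14% held GATAA, 39.96% CACCC, 26.98% CCAAT, 9.41% TATAAA and 7.88% CATAAA on either strand. A match is a description of letters and shows no binding.

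The expected counts, which are estimates made when a read fits several genes, show the sharing of reads directly. The Hba1 count was a whole number (within 0.02) in 0 of 10 libraries and so was that of Hba2, while their sum was whole in 10 of 10. The same held for beta-globin: Hbb was whole in 0 of 10 libraries, and the sum of Hbb, Hbb-b1, LOC100134871 and LOC689064 was whole in 10 of 10. LOC100134871 is named Hbbl1 and LOC689064 is named Hbb-bs in RefSeq. Reads were thus divided within the alpha group and within the beta group, and no sum held a fraction of a read. The split of a group into its genes is an estimate, and values of Hba1, Hba2 and Hbb are uncertain to that extent; the sums are not affected by it.

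Haemoglobin transcripts were scarce in these perfused hippocampi, and their level differed several-fold from rat to rat. Levels are given in CPM, the count as a share of the library, on a library size scaled by TMM (trimmed mean of M-values). Total expected counts ran from 15118203 to 18533520 per library. Hba1 was at 6.23, 18.03, 5.55, 4.04 and 28.2 CPM in untreated replicates 1 to 5. In RG2833 replicates 1 to 5 it was at 6.26, 11.1, 11.2, 6.51 and 9.20 CPM. Untreated replicates 5 and 2 held the highest levels of all 10 rats, untreated replicates 4 and 3 the lowest, and the groups overlapped. Untreated replicate 1 could not be told from RG2833 replicates 1 and 4: it lay just below both on the scaled library size and just above both on the unscaled size (6.47 against 6.35 and 6.28 CPM), with overlapping intervals. Counting error does not cover that spread: in CPM on the unscaled library size, Hba1 was 28.1 in untreated replicate 5 (95% Wilson interval 25.7 to 30.6) and 4.13 in untreated replicate 4 (3.25 to 5.25). Sorted by level, 7 of the 9 neighbouring pairs of libraries had overlapping intervals, and the gaps lay between RG2833 replicate 2, untreated replicate 2 and untreated replicate 5.

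Hba2, the second alpha-globin name, had the same high libraries. It was at 2.48, 7.22, 2.33, 2.51 and 11.7 CPM in untreated replicates 1 to 5. In RG2833 replicates 1 to 5 it was at 1.61, 3.69, 3.33, 2.76 and 6.22 CPM. Untreated replicates 5 and 2 were again on top and RG2833 replicate 5 followed, and the groups overlapped.

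Hbb, the beta-globin gene that took most of the beta reads, ran in parallel. It was at 3.87, 10.7, 2.45, 3.86 and 17.9 CPM in untreated replicates 1 to 5. In RG2833 replicates 1 to 5 it was at 4.52, 7.38, 7.16, 4.32 and 7.47 CPM. Untreated replicates 5 and 2 were again above every RG2833 rat, and the other 3 untreated rats were below every RG2833 rat on the scaled and the unscaled library size, though the intervals of untreated replicate 1 and RG2833 replicate 4 overlapped. The highest library exceeded the lowest 6.97-fold for Hba1, 7.23-fold for Hba2 and 7.30-fold for Hbb.

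**Figure D1:**
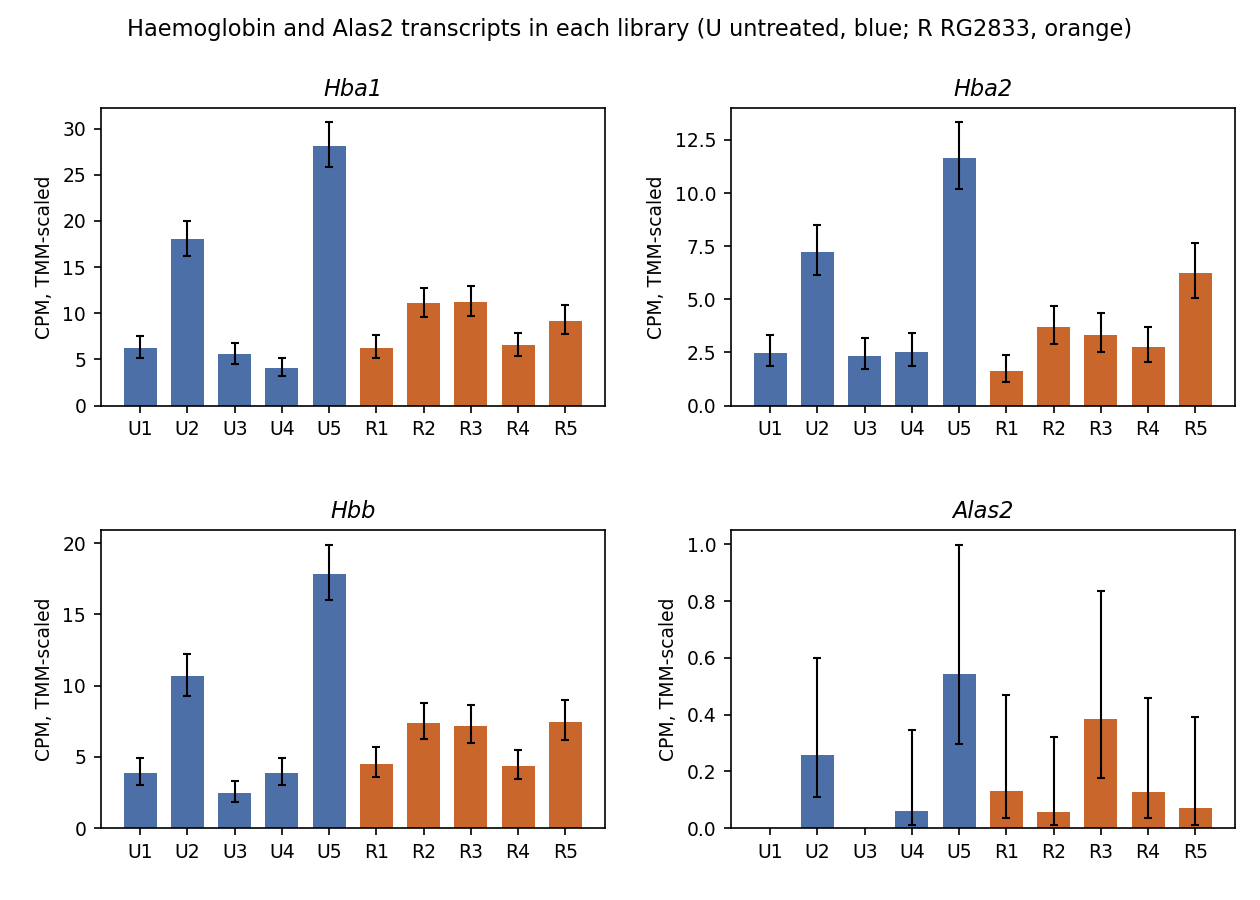
Level of Hba1, Hba2, Hbb and Alas2 in each library as CPM on the TMM-scaled library size (vertical axes start at 0), with U for untreated and R for RG2833 replicates; error bars are 95% Wilson intervals of the counts and cover counting error only, and libraries at 0 have no bar. Untreated replicates 5 and 2 are highest for all 3 globin names, and Alas2 rests on 0 to 10 counts a library.

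Alas2 was near the limit of detection. It had 0, 5, 0, 1 and 10 counts in untreated replicates 1 to 5. In RG2833 replicates 1 to 5 it had 2, 1, 6, 2 and 1 counts. The 2 untreated rats with the most haemoglobin had the most Alas2 of their group, but all 9 neighbouring pairs had overlapping Wilson intervals. A count of 0 allows up to 3 counts, here 0.180 CPM on the unscaled library size in untreated replicate 1 and 0.175 in untreated replicate 3; the upper Wilson limits are wider, 0.230 and 0.224 CPM. Alas2 did not pass the filter on low counts; the other 3 genes did. Alas1, the form used outside red cells, was at 49.0 ± 6.37 CPM without the drug and 44.4 ± 5.51 CPM with it (SD, n = 5 each).

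The spread of the globin genes between rats was large beside that of other genes. The SD of log2 CPM over the 10 libraries was 0.84 for Hba1, 0.85 for Hba2 and 0.82 for Hbb, where counting alone would give 0.13, 0.20 and 0.16. The median over the 12161 genes tested was 0.19. A larger SD than that of Hba1 was found in 2.63% of all genes, and in 21 of 741 genes (2.83%) whose mean log2 CPM lay within 0.25 of it. For Hbb it was 20 of 579 such genes (3.45%) and for Hba2 25 of 452 (5.53%). The spread lay mostly among the untreated rats: the SD of log2 CPM was 1.19 in untreated and 0.40 in RG2833 rats for Hba1, 1.16 and 0.39 for Hbb, and 1.05 and 0.68 for Hba2 (n = 5 each). This difference in spread rests on untreated replicates 5 and 2 and was not tested.

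**Figure D2:**
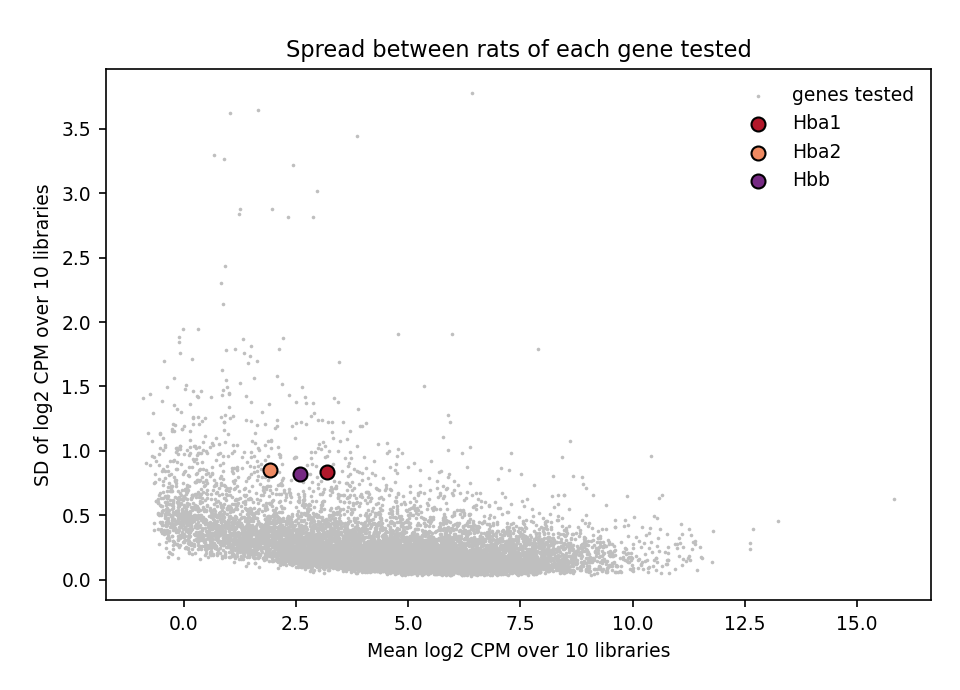
Mean log2 CPM (horizontal) and SD of log2 CPM (vertical) over the 10 libraries for each of 12161 genes tested (grey), with Hba1, Hba2 and Hbb in colour. The 3 globin names lie at an SD of 0.82 to 0.85, above the bulk of genes at their level.

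Alpha-globin and beta-globin reads kept a narrow range of proportions from rat to rat. Added over their genes, alpha reads were 151, 493, 132, 107 and 734 in untreated replicates 1 to 5, and beta reads were 84, 276, 59, 70 and 435. In RG2833 replicates 1 to 5 alpha reads were 122, 260, 227, 148 and 223, and beta reads were 83, 143, 137, 90 and 134. While the sum of both differed 5.86-fold in CPM between the highest and the lowest library, alpha reads per beta read, not corrected for transcript length, stayed between 1.47 and 2.24. The ratio was 1.81 ± 0.26 in untreated and 1.65 ± 0.12 in RG2833 rats (SD, n = 5 each), and the ranges overlapped. Pooled over libraries, alpha made up 63.2% of 4108 globin reads, and the 95% Wilson interval of each of the 10 libraries covered this share. The lowest share was 59.5% (52.7 to 66.0) in RG2833 replicate 1 and the highest 69.1% (62.2 to 75.2) in untreated replicate 3. The pooled share includes the reads of each library set against it, and libraries with few reads have wide intervals. Coverage of the pooled share is therefore a weak test of a constant proportion.

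**Figure D3:**
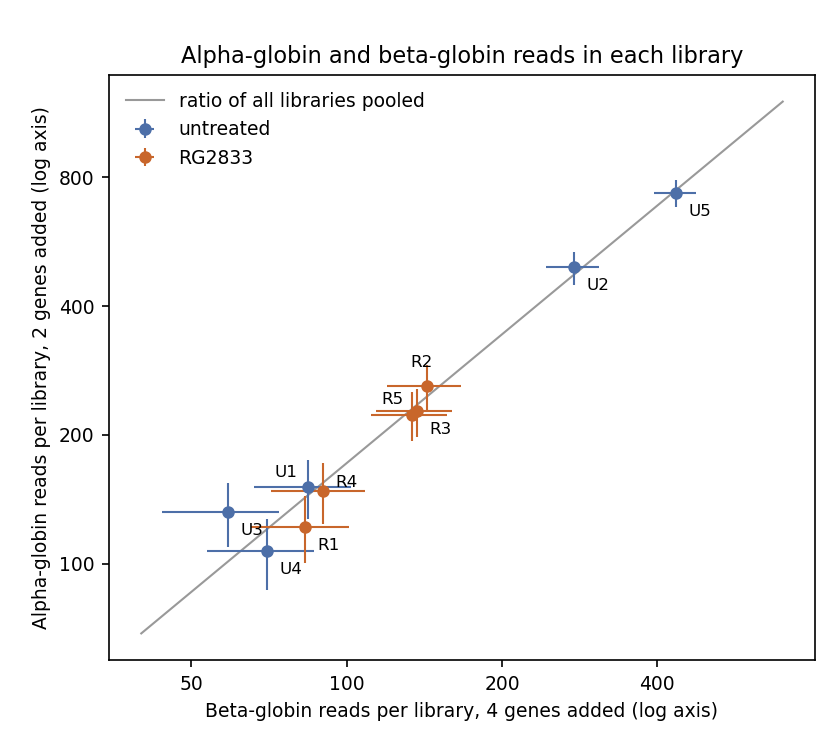
Beta-globin reads (horizontal, 4 genes added) and alpha-globin reads (vertical, 2 genes added) of each library on log axes, with U for untreated and R for RG2833 replicates; bars are 95% normal intervals of the count (counting error only) and the line is the ratio of all libraries pooled. The libraries lie along the line from 59 beta reads in untreated replicate 3 to 435 in untreated replicate 5.

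Within each group of genes the estimated split varied more. Hba1 took from 59.6% of alpha reads in RG2833 replicate 5 to 79.4% in RG2833 replicate 1, with 69.2% ± 4.32 in untreated and 72.2% ± 7.82 in RG2833 rats (SD, n = 5 each). Hbb took from 69.2% of beta reads in untreated replicate 3 to 91.1% in RG2833 replicate 2, with 78.0% ± 7.62 in untreated and 82.8% ± 5.52 in RG2833 rats. LOC100134871, annotated as a minor beta-globin, had 5.89 to 75.65 expected counts in untreated and 0 to 15.83 in RG2833 libraries, and was the 1 further beta gene to pass the filter. Its log2 fold change of -1.25 (SE 0.77, edgeR adjusted p = 0.852) is the lowest among the other globins tested, and its share of beta reads is an estimate of the same kind.

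Across the 10 rats, the globin names followed each other on the log2 CPM scale. For Hba1 and Hbb, which belong to groups with separate whole sums of reads, Pearson's r was 0.942 (permutation p = 9.00e-05, adjusted p = 0.00153 over 17 relations computed) and Spearman's rho 0.927 (permutation p = 0.000270, adjusted p = 0.00459). Without untreated replicates 5 and 2, the 2 farthest from the median of Hba1, r was 0.832 (permutation p = 0.00730), and it was 0.946 within untreated and 0.942 within RG2833 rats. For Hba2 and Hbb r was 0.891 (permutation p = 0.000560, adjusted p = 0.00476) and rho 0.867 (permutation p = 0.00224, adjusted p = 0.0190). Without the same 2 rats r was 0.686 (permutation p = 0.0534), and it was 0.983 within untreated and 0.781 within RG2833 rats. Hba1 and Hba2 share reads by estimate, and their r of 0.881 (permutation p = 0.000970, adjusted p = 0.00550; rho 0.842, permutation p = 0.00383, adjusted p = 0.0217) was 0.609 without these 2 rats (permutation p = 0.101). It was 0.978 within untreated and 0.632 within RG2833 rats. With 8 rats left, both relations that involve Hba2 kept their sign and were no longer below an unadjusted p of 0.05.

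The relation of Alas2 with the globins rests on few counts and few rats. Its r was 0.796 with Hbb (permutation p = 0.00582, adjusted p = 0.0247; rho 0.685, permutation p = 0.0342, adjusted p = 0.0970). With Hba1 it was 0.753 (permutation p = 0.0123, adjusted p = 0.0419; rho 0.745, permutation p = 0.0169, adjusted p = 0.0576), and with Hba2 0.609 (permutation p = 0.0609, adjusted p = 0.172; rho 0.539, permutation p = 0.114, adjusted p = 0.276). Without the 2 rats farthest from the median on the globin axis, untreated replicates 5 and 3 for Hbb and 5 and 2 for the alpha names, r was 0.538, 0.472 and 0.132 (permutation p = 0.171, 0.244 and 0.751). Within untreated rats r was 0.967 with Hbb, 0.903 with Hba1 and 0.972 with Hba2, and within RG2833 rats it was -0.0054, 0.149 and -0.215 (n = 5 each). The difference between the groups was not tested. Leaving out any of untreated replicates 1, 2, 3 or 5 lifted the adjusted p of both relations above 0.05, to between 0.0506 and 0.233 for Hbb and between 0.0653 and 0.338 for Hba1, and leaving out RG2833 replicate 5 did so for Hba1 (adjusted p = 0.0614).

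The comparison of RG2833 with untreated asks whether the drug changed these transcripts, and no change was detected. Hba1 was at 12.4 ± 10.4 CPM without the drug and 8.85 ± 2.38 CPM with it (SD, n = 5 each). The fitted log2 fold change was -0.49, its 95% interval ran from -1.59 to 0.61 with an SE of 0.50, and the adjusted p by edgeR was 0.921. Hba2 was at 5.24 ± 4.15 and 3.52 ± 1.70 CPM. The fitted log2 fold change was -0.58, its 95% interval ran from -1.72 to 0.55 with an SE of 0.51, and the adjusted p by edgeR was 0.919. Hbb was at 7.74 ± 6.50 and 6.17 ± 1.60 CPM. The fitted log2 fold change was -0.33, its 95% interval ran from -1.42 to 0.76 with an SE of 0.49, and the adjusted p by edgeR was 0.956. Of the 3 members tested 0 passed at an adjusted p under 0.05, against 0% of the 12161 genes tested; DESeq2 gave 6 such genes, and its adjusted p was 0.997 for each of the 4 members. At an unadjusted p under 0.05 it was 0 of 3, against 5.66% of genes (688) in either direction and 2.71% with a lower level in RG2833. A log2 fold change at or below -0.3 was found in 3 of 3, against 5.67% of genes, in a gene group whose members share reads and rats and so are not separate observations. The cut of -0.3 was not among the planned thresholds, and the -0.33 of Hbb lies just past it. The SD of log2 CPM was 0.82 to 0.85 for the members and 0.19 for the median gene. Genes that spread so widely reach such a change more easily, so 3 of 3 is not evidence of a lower level. The groups overlapped for each of the 4 genes, and did not overlap for 1.00% of the genes tested. All 3 intervals include changes of more than 1 log2 unit downward and more than 0.5 upward, so the data do not show that the levels were alike.

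The direction of the fold changes of Hba1 and Hbb, and most of the size of that of Hba2, depended on untreated replicate 5. The median CPM was higher in RG2833 than in untreated rats for Hba1 (9.20 against 6.23), Hba2 (3.33 against 2.51) and Hbb (7.16 against 3.87), while the means were lower. The difference of mean log2 CPM was -0.12 for Hba1, -0.36 for Hba2 and 0.026 for Hbb, so that for Hbb it had the opposite sign to the fitted change (two-sided exact permutation p = 0.857, 0.540 and 1, where the smallest possible is 0.00794). Without untreated replicate 5 the fitted log2 fold change was 0.064 for Hba1 and 0.24 for Hbb, and -0.053 for Hba2. With the shared reads put together, the log2 fold change was -0.52 (SE 0.49) for Hba1 and Hba2 added and -0.45 (SE 0.50) for the 4 beta-globin genes added (edgeR adjusted p = 0.920 and 0.934), and these were 0.032 and 0.15 without that rat. Alas2, fitted without a filter, had a log2 fold change of -0.21 (SE 0.92; edgeR adjusted p = 0.994; exact permutation p = 0.738, n = 5 each).

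**Figure D4:**
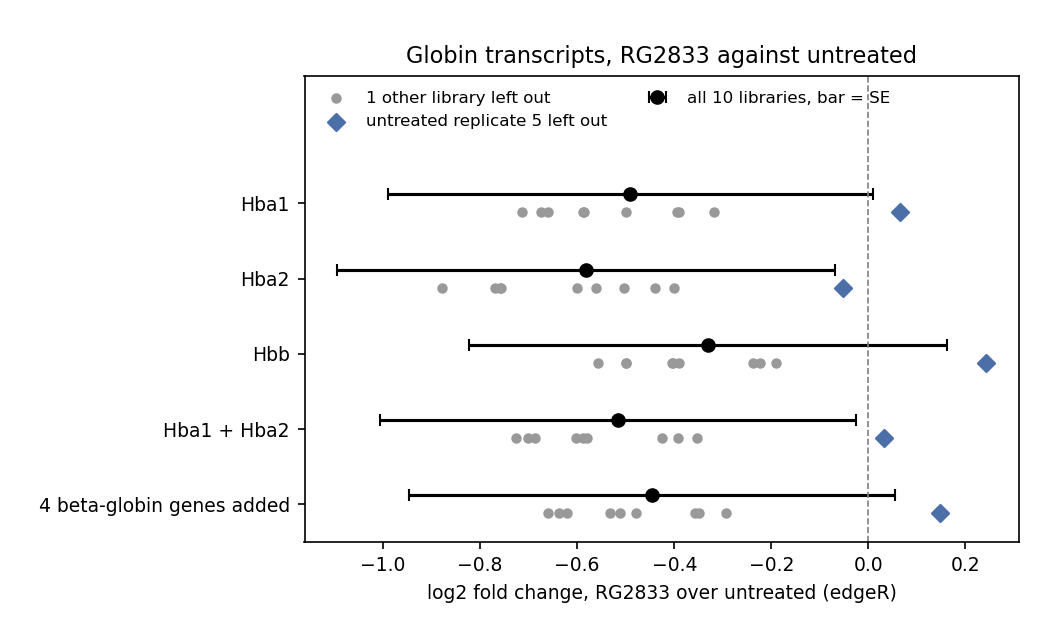
edgeR log2 fold change of RG2833 over untreated for the 3 globin names and the 2 sums of genes that share reads (black, bars are SE, all 10 libraries), with the value after each of 9 libraries was left out in turn (grey) and after untreated replicate 5 was left out (blue diamonds). Without untreated replicate 5 the values lie between -0.053 and 0.24.

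Embryonic and fetal-type globins were not seen in either group. Inhibitors of histone deacetylases raise fetal globin in cultured human erythroid cells, which makes these genes a natural companion of the adult ones. Hbe1, Hbe2, Hbg1 and Hbz had 0 counts in all 10 libraries, as did LOC287167, the alpha gene that RefSeq names Hba-a3. A count of 0 allows up to 3 counts, which is 0.162 to 0.198 CPM on the unscaled library size. Bcl11a and Zbtb7a encode repressors of fetal globin that neurons also express: Bcl11a was at 68.4 ± 10.6 CPM without the drug and 65.9 ± 3.56 CPM with it, and Zbtb7a at 111 ± 4.68 and 112 ± 5.71 CPM (n = 5 each). Of 14 genes listed for erythroid transcription and globin switching, 11 were in the table and 9 were tested, with 3 higher and 6 lower in RG2833 and a median log2 fold change of -0.0073. Of these, 0 passed the adjusted and 1 the unadjusted threshold: Ldb1, which bridges GATA1 and its partners, was at 68.9 ± 4.65 and 62.8 ± 1.65 CPM (SE 0.06 around a log2 ratio of -0.13, adjusted p = 0.841 by edgeR). Gata1, the master factor of red cell development, had 1 count in all libraries together. Nfe2, another factor of the list, had 11 counts in all, with 0 in RG2833 replicates 4 and 5. Klf1, Tal1 and Lmo2 were detected in every library. Klf1, the erythroid member of the KLF family, had 36, 41, 21, 28 and 43 counts in untreated and 38, 29, 33, 21 and 28 in RG2833 replicates 1 to 5. Tal1 and Lmo2, partners of GATA factors that are also made outside red cells, had 701 and 4342 counts in all. Over all genes tested the median log2 fold change was -0.011 and 53.5% were lower.

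Globins that serve cells other than red cells were also given by the table. Cygb, cytoglobin, was at 44.6 ± 6.80 CPM without the drug and 40.5 ± 4.32 CPM with it (SE 0.11 around a log2 ratio of -0.14). Ngb, the neuronal neuroglobin, was at 5.75 ± 2.35 and 4.67 ± 1.09 CPM (SE 0.27 around a log2 ratio of -0.30). Neither passed (edgeR adjusted p = 0.904 and 0.919). Mb, myoglobin of muscle, had 4 counts in all.

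Other transcripts of red cells were few, and the ones present in number are shared with brain. Of 28 genes listed for erythroid cells 22 were in the table and 11 were tested, 6 with a higher and 5 with a lower mean under RG2833 and with a median log2 fold change of 0.018. Slc4a1, the anion exchanger of the red cell membrane, had 1 to 4 counts in every library, 4 each in untreated replicates 2 and 5 and RG2833 replicate 3. Ahsp, the chaperone of free alpha-globin, had 19 counts in all, 0 of them in untreated replicate 5, and Rhag, part of the Rh complex, had 0. The most abundant genes of the list, Dmtn and Sptb, encode membrane skeleton proteins found in red cells and neurons and were at 235 ± 13.5 and 206 ± 18.1 CPM without the drug and 222 ± 7.38 and 229 ± 34.8 CPM with it. Ank1, an ankyrin of the same skeleton, was at 33.1 ± 7.82 CPM without the drug and 46.9 ± 13.3 CPM with it, with an unadjusted p of 0.0343 that did not pass (SE 0.21 around a log2 ratio of 0.50, adjusted p = 0.841 by edgeR). The summed level of the list was 622 to 735 CPM over all rats and came mostly from Dmtn, Sptb and Bpgm, so that its relation with Hbb (r = 0.104, permutation p = 0.777; rho 0.152, permutation p = 0.683; adjusted p = 0.881 and 0.920) says little about red cells. This list holds Aqp1, a water channel of red cells and choroid plexus, with 1616 counts in untreated replicate 2 and 1215 in RG2833 replicate 1, against 6 to 54 elsewhere.

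Many markers of other blood cells had few or no counts, with exceptions among leukocyte genes. Of the platelet list, 9 of 12 genes were in the table and 1 was tested, Gp5, a glycoprotein of the platelet surface, at 3.53 ± 1.03 CPM without the drug and 3.54 ± 1.07 CPM with it; Ppbp and Gp1bb were at 0. The summed platelet level ran from 2.94 to 5.69 CPM and was mostly Gp5, so that what follows describes largely that gene. Its relation with Hbb differed between measures, with rho 0.794 (permutation p = 0.00913, adjusted p = 0.0388) and r 0.460 (permutation p = 0.184, adjusted p = 0.370), and r was 0.547 without untreated replicates 5 and 3 (permutation p = 0.128). Of the leukocyte list 20 of 22 genes were in the table and 5 were tested, 1 higher and 4 lower in RG2833. Elane, Cd79b and Ms4a1, markers of neutrophils and B cells, were at 0 in all libraries, and S100a8 and S100a9, abundant in neutrophils, had 19 and 39 counts in all. Cd3e, a chain of the T cell receptor complex, had 18, 13, 3, 12 and 76 counts in untreated and 44, 26, 61, 2 and 0 in RG2833 replicates 1 to 5. Its highest count was in untreated replicate 5, the rat with the most haemoglobin, while Cd3g, another chain of that complex, had 5 counts in all. Ptprc (CD45) and Itgal, surface proteins of leukocytes, had 1223 and 576 counts in all, and Ptprc is also made by microglia. Coro1a and Lyz2, the most abundant of the list and also made by brain myeloid cells, were at 110 ± 14.2 and 59.3 ± 18.1 CPM without the drug and 99.6 ± 13.4 and 52.9 ± 7.92 CPM with it. No relation of the leukocyte sum with Hbb was detected (r = 0.0071, permutation p = 0.985; rho -0.042, permutation p = 0.918).

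No relation of Hbb with the amount of vessel transcripts was detected. Against Hbb, r was -0.210 for the endothelial sum (593 to 1139 CPM without the drug, 703 to 1216 CPM with it) and -0.217 for the mural cell sum (198 to 361 and 216 to 323 CPM), with permutation p = 0.563 and 0.545 and adjusted p = 0.737 for both; rho was -0.067 and -0.042 (permutation p = 0.864 and 0.920). Without untreated replicates 5 and 3, r was 0.415 and 0.531 (permutation p = 0.306 and 0.149). Untreated replicate 5, with the most haemoglobin, had an endothelial sum of 661 CPM, and untreated replicate 3, with the least Hbb, had 1139 CPM. Cldn5, the tight junction protein of brain endothelium, was at 102 ± 26.1 CPM without the drug and 121 ± 30.8 CPM with it.

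Transcripts of tissue next to the hippocampus were abundant in 2 libraries. The choroid plexus sum was 8490 CPM in untreated replicate 2 and 9837 CPM in RG2833 replicate 1, against 14.9 to 304 CPM in the other 8, and the meningeal sum was 3865 and 1406 CPM there, against 269 to 673 CPM. In RG2833 replicate 1 the meningeal sum came mostly from Igf2 and Ptgds, with 10103 and 9098 counts. Col1a1, Slc6a13 and Aldh1a2 had 230, 47 and 66 counts there, against 2179, 369 and 731 in untreated replicate 2. Ogn, Dcn and Mgp had 653, 509 and 308 counts in RG2833 replicate 1, against 1733, 904 and 559 in untreated replicate 2. Untreated replicate 2 had the second highest haemoglobin of all rats, while RG2833 replicate 1 was among the lowest, and untreated replicate 5, the highest, had a choroid plexus sum of 48.8 CPM and a meningeal sum of 432 CPM. Without these 2 choroid-rich libraries the log2 fold change was -0.22 for Hba1, -0.27 for Hba2 and -0.11 for Hbb (edgeR adjusted p = 0.986, 0.983 and 0.993). The part of these tissues in the haemoglobin level was not tested further. Against Hbb, r was -0.073 for the choroid plexus sum and 0.101 for the meningeal sum (permutation p = 0.840 and 0.773; rho -0.200 and -0.103, permutation p = 0.583 and 0.785). The values within groups differed in sign, 0.176 and 0.308 in untreated and -0.734 and -0.746 in RG2833 rats (n = 5 each), a difference that was not tested, and r was 0.152 and 0.362 without untreated replicates 5 and 3. For neurons, astrocytes, oligodendrocytes and microglia r was 0.296, -0.239, 0.447 and -0.512 (permutation p = 0.406, 0.508, 0.196 and 0.137; rho 0.127, -0.176, 0.418 and -0.370, permutation p = 0.734, 0.636, 0.234 and 0.295). Without untreated replicates 5 and 3, each of these 4 lay between -0.122 and 0.015.

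**Figure D5:**
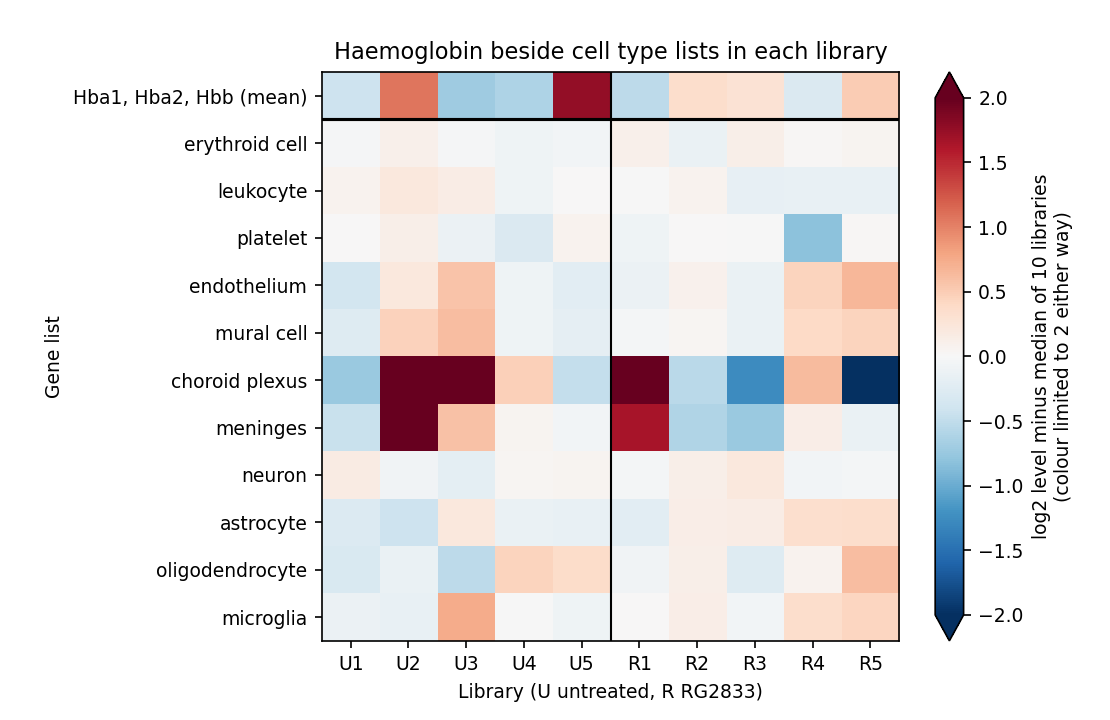
Mean log2 level of Hba1, Hba2 and Hbb (top row) and log2 summed CPM of 11 cell type lists (rows) in each library (columns, U untreated, R RG2833), each as the difference from its median over 10 libraries; colours are limited to 2 log2 units either way. The top row peaks in untreated replicates 5 and 2, and the choroid plexus row is at its upper limit in untreated replicates 2 and 3 and RG2833 replicate 1, where the sums were 8490, 304 and 9837 CPM.

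No change with the drug was detected among genes for making haem. All 15 genes listed were tested, 8 higher and 7 lower in RG2833, with a median log2 fold change of 0.014; 0 passed the adjusted threshold and 1 the unadjusted. Slc25a38, a mitochondrial glycine carrier that feeds haem synthesis, was at 23.4 ± 0.66 CPM without the drug and 26.9 ± 2.78 CPM with it (SE 0.07 around a log2 ratio of 0.20, adjusted p = 0.841 by edgeR). Slc25a39 and Tmem14c, mitochondrial transporters and the most abundant of the list, were at 56.5 ± 4.55 and 56.9 ± 3.08 CPM without the drug and 61.3 ± 4.30 and 55.8 ± 1.65 CPM with it. Slc25a37, mitoferrin of red cells, was at 2.31 ± 0.59 and 2.47 ± 0.64 CPM.

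Of the genes that clear haemoglobin and haem, 9 were tested and 0 passed the adjusted threshold, 4 with a higher and 5 with a lower level under RG2833, with a median log2 fold change of -0.0074. Cd163, the macrophage receptor for haemoglobin bound to haptoglobin, had 11, 94, 28, 22 and 16 counts in untreated replicates 1 to 5. In RG2833 replicates 1 to 5 it had 12, 17, 9, 15 and 12 counts. The high value stood in untreated replicate 2, the library rich in choroid plexus and meningeal transcripts, and untreated replicate 5 was not high. Its log2 fold change of -1.19 (SE 0.52) had an unadjusted p of 0.0417 and did not pass (edgeR adjusted p = 0.841). Hmox1, the inducible enzyme that breaks down haem, was at 9.76 ± 1.87 CPM without the drug and 10.7 ± 1.58 CPM with it. Lrp1, the receptor for haem bound to haemopexin, was at 892 ± 61.8 and 988 ± 108 CPM, and Slc48a1, a haem transporter, at 157 ± 12.3 and 173 ± 17.7 CPM. Haptoglobin (Hp) and haemopexin (Hpx) themselves had 64 and 11 counts in all.

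Of 13 iron-handling genes tested 8 were higher and 5 lower in RG2833, with a median log2 fold change of 0.022 and 0 past the adjusted threshold. Cp, the ferroxidase ceruloplasmin, had 225, 1077, 266, 428 and 272 counts in untreated and 250, 240, 172, 226 and 192 in RG2833 replicates 1 to 5 (SE 0.37 around a log2 ratio of -0.88, adjusted p = 0.841 by edgeR), again with its highest value in untreated replicate 2. Steap3, a ferrireductase, was at 14.8 ± 1.40 and 17.7 ± 2.73 CPM (SE 0.11 around a log2 ratio of 0.26, adjusted p = 0.841 by edgeR). Fth1, the ferritin heavy chain, was at 2823 ± 325 and 3117 ± 361 CPM, and Tf, transferrin, at 984 ± 309 and 934 ± 330 CPM.

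Among the genes compared, those whose profile was most like that of haemoglobin came from outside the red cell lists. Over the 10 libraries, the profile (the mean of the centred log2 CPM of Hba1, Hba2 and Hbb) was compared with 12132 other genes, whose median r was 0.024; 9 had an r over 0.8. The closest was Impdh2, an enzyme of guanine nucleotide synthesis, with r 0.941 and rho 0.952. Its own level moved little, from 40.1 to 48.1 CPM over all rats. Next came Gpx7 (r 0.919, rho 0.842), a peroxidase of the endoplasmic reticulum, and Snrpc (r 0.899, rho 0.867), a spliceosome protein. They were followed by Nxt1 (r 0.873), Pcdhb4 (0.854), Coro1b (0.841), Mettl23 (0.813), Iah1 (0.808), Myg1 (0.80) and Phc2 (0.799). The lowest were Rpo1-3 (r -0.917), Smagp (-0.883) and Btk (-0.878). Without untreated replicate 5 the r of Impdh2 was 0.884 and that of Gpx7 0.879. These are descriptions over 10 libraries that share depth and scaling, chosen as the extremes of many genes. Of the 11 red cell genes compared, the closest was Tmod1 (r 0.360), which encodes a cap of actin filaments in the membrane skeleton. Alas2, whose relation with the globins is given above, did not pass the filter and was not in this ranking. Slc4a1, Ahsp and other red cell genes with few counts were missing for the same reason. The other globins, LOC100134871 among them, were left out of the comparison. Which genes lead the ranking therefore says little about red cells.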

How the data were processed

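The 10 libraries were made with a stranded mRNA kit from column-purified RNA, per the labels' protocols. The submitters' processing notes name bcl2fastq 2.17, Bowtie2 2.1.0, RSEM 1.2.15, edgeR and the build rn6, with no role; the annotation is not given in the sources used here. The authors deposited RSEM expected counts per gene, 11.6% of them not whole, and a signal table of CPM on TMM-scaled library sizes. There, 100% of values above 0 were whole multiples of 1 step per library, and the recovered reads equalled the rounded counts for at least 99.9% of genes; the test on them called 0 genes. Each column belongs to 1 rat by its title.

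Expected counts were rounded and analysed with edgeR 4.0.16 (R 4.3.3): filterByExpr (minimum count 10, total 15) kept 12161 genes, scaled by TMM and tested by the robust quasi-likelihood F test, with Benjamini-Hochberg adjustment and a threshold of 0.05. Log2 CPM used a prior count of 2, and summed CPM 0.1. Single genes were compared by an exact permutation test over 252 regroupings, correlations by 100000 permutations (20000 in the alternatives) with adjustment over 17 relations. Intervals of levels and shares are 95% Wilson intervals, those in the plot of alpha against beta reads are 95% normal intervals of the count, and both cover counting error only, as no molecular identifiers are named in the labels and copies of 1 molecule can count more than once. Intervals of fold changes are 95% intervals from the edgeR fit and include the spread between rats.

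The 18 gene lists, of which the 4 members are 1 (237 entries in all, 208 in the table, 158 tested), were chosen with earlier results of these data known. Named from each list were the 2 genes with the highest mean CPM and up to 4 with an unadjusted p under 0.05, some of which are not reported here; further genes are background to the members and were chosen after their values were seen. Likeness took the 10 highest and 3 lowest r. Of the gene names, 97.4% matched RefSeq GRCr8, used for names and promoters only; its coordinates do not belong to the build rn6. Alternatives were other scalings, filters, tools, a replicate block, added gene copies and left-out libraries (DESeq2 1.42.0, limma 3.58.1).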

Additional observations from a re-analysis of the deposited data

Results flagged for a closer look

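A library is listed here if, among the 5 of its group, it lay apart from its nearest neighbour by more than 0.71 of the whole range. This happened in 3 of 44 sets of values, where chance gives 2.2. In untreated replicate 4, Hba1 took 61.5% of alpha-globin reads, where the remaining 4 of its group had 70.7% to 71.5%; the split is an estimate over 107 reads. The microglia list in untreated replicate 3 had a log2 summed CPM of 9.96, and its group otherwise spanned 9.06 to 9.21. The platelet list in RG2833 replicate 4 had a log2 summed CPM of 1.61, and its group otherwise spanned 2.34 to 2.44. The levels of Hba1, Hba2, Hbb and Alas2 were examined as log2 CPM and gave no such gap on that scale. In counts, Alas2 stood apart in RG2833 replicate 3, with 6 counts where the rest of its group had 1 or 2.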

How the results depend on the processing

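The count of genes past an adjusted p of 0.05 was 0 throughout except 6 in DESeq2. At an unadjusted p it was 1266 in limma-voom with sample weights and 401 with a replicate block, and from 375 (without RG2833 replicate 4) to 1732 (without untreated replicate 3) with 1 library left out; 424 without RG2833 replicate 5. Leaving out 1 library moved the log2 fold change from -0.71 to 0.064 for Hba1, from -0.88 to -0.053 for Hba2 and from -0.56 to 0.24 for Hbb, from -0.73 to 0.032 for Hba1 and Hba2 added and from -0.66 to 0.15 for the added beta-globin genes. The upper value was that without untreated replicate 5 in each; the cause was not tested. Same-numbered rats are different animals and their deviations correlated at -0.49 to -0.034, so the numbers do not pair them; with the replicate block the log2 fold change was -0.15 for Hba1, -0.40 for Hba2 and -0.016 for Hbb, and no library correlated best with its own number. Correlations with 1 library left out ran from 0.892 to 0.973 for Hba1 with Hbb, 0.801 to 0.932 for Hba2 with Hbb, 0.778 to 0.921 for Hba1 with Hba2, 0.660 to 0.851 for Hbb with Alas2, 0.583 to 0.805 for Hba1 with Alas2 and 0.341 to 0.714 for Hba2 with Alas2. Without untreated replicate 5, of these pairs Hba1 with Hbb alone kept an adjusted p under 0.05. With a prior count of 0.5, r of Hba1 with Alas2 was 0.715 and lost the call (adjusted p = 0.0653). Adding the beta genes, the recovered reads and leaving out libraries from the fits of added genes were alternatives chosen after the data were seen. Alas2, with 0 to 10 counts, is too shallow for a fold change to be read.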

Other observations

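Brain cell and border tissue lists are given here as values, beside a median log2 fold change of -0.011 and 53.5% lower among all genes tested; 0 genes of these lists passed the adjusted threshold in edgeR. Of 14 endothelial genes 11 were higher and 3 lower in RG2833 (median 0.23); Slc2a1, the glucose transporter of brain endothelium, was at 182 ± 44.4 CPM untreated against 200 ± 46.1 CPM treated (SD, n = 5 each). Of 12 mural cell genes 6 were higher and 6 lower (median -0.0089), and Tagln, a smooth muscle protein, had the list's only unadjusted p under 0.05, at 24.0 ± 4.81 against 18.5 ± 2.03 CPM (adjusted p = 0.841 by edgeR). Cspg4 and Pdgfrb, surface proteins of pericytes, were at 52.5 ± 17.8 against 60.7 ± 15.8 and 45.2 ± 12.6 against 46.1 ± 8.18 CPM. All 12 meningeal genes were lower (median -0.89), with the meningeal sum highest in untreated replicate 2; Ptgds, a prostaglandin synthase, was at 788 ± 975.1 against 326 ± 160 CPM and the growth factor Igf2 at 183 ± 315 against 156 ± 278 CPM. Of 13 choroid plexus genes 8 were higher and 5 lower (median 0.14), with Ttr, transthyretin, at 1451 ± 3063 against 1661 ± 3650 CPM and Kl, klotho, at 57.6 ± 119 against 64.9 ± 142 CPM.

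All 8 astrocyte genes were higher in RG2833 (median 0.32), among them Gja1, a gap junction protein, at 602 ± 97.95 against 750 ± 91.2 CPM, with an unadjusted p of 0.0285 and an adjusted p of 0.841 by edgeR. Gfap, the glial filament protein, was at 2259 ± 195 against 2579 ± 275 CPM, and S100b, a calcium-binding protein, at 1988 ± 512 against 2514 ± 490 CPM. Of 10 neuron genes 2 were higher and 8 lower (median -0.035), with the synaptic protein Snap25 at 2104 ± 421 against 1908 ± 287 CPM and the kinase Camk2a at 1694 ± 136 against 1838 ± 233 CPM. Of 8 oligodendrocyte genes 2 were higher and 6 lower (median -0.13); the myelin gene Mbp was at 6247 ± 1771 against 7385 ± 2144 CPM. Of 8 microglia genes 6 were higher and 2 lower (median 0.068), with the receptor Csf1r at 174 ± 54.5 against 174 ± 24.5 CPM. Of the class I histone deacetylase genes Hdac1, Hdac2, Hdac3 and Hdac8, 1 was higher and 3 lower (median -0.13). Those of the drug's named targets were at 38.5 ± 3.39 against 35.0 ± 2.42 CPM (Hdac1) and 49.99 ± 3.26 against 46.1 ± 4.01 CPM (Hdac3), and Hdac2 was at 83.8 ± 11.3 against 76.2 ± 6.90 CPM.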
